A study of Mus musculus with 6 samples.

Results

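The genes described here are those named by symbol as proteins of the cytosolic ribosome, the machine that translates messenger RNA outside the mitochondria. Members were the rows of the deposited gene table whose symbol is Rpl or Rps followed by a number, with at most 1 letter and further digits after it, plus Rplp0, Rplp1, Rplp2 and Rpsa. The rule took 84 of 23224 rows, 33 of the small subunit and 51 of the large subunit. RNA was sequenced from mouse AKP tumour organoids, epithelial cultures that the labels trace to tumours grown in vivo, in 3 libraries labelled Control and 3 labelled SOX17KO, a genotype that the series' design text attributes to CRISPR-Cas9. The comparison asks what loss of SOX17, an endoderm transcription factor, does in colon cancer cells. The labels do not spell out the AKP alleles, which both groups share, and do not say whether a group is 1 clone or several, or whether its libraries came from separate cultures, so the p-values below measure the spread between these libraries.

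Ribosomal proteins are assembled with ribosomal RNA in the nucleolus, and each ribosome carries 1 copy of nearly all of them. Their messenger RNAs are among the most abundant in growing cells and begin with a run of pyrimidines, the terminal oligopyrimidine or TOP motif, through which mTOR signalling and the protein Larp1 adjust their translation and stability. Some ribosomal proteins also act away from the ribosome. Rpl5 and Rpl11 bind and inhibit Mdm2, the ubiquitin ligase that degrades p53, when ribosome assembly is disturbed.

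The sequence around the listed transcription start is shown for 8 members, because it is where a TOP motif would lie and because these members are the ones whose Control and SOX17KO libraries did not overlap and that had a promoter entry, together with Rpl22, the partner of Rpl22l1. Each window runs from 10 bases before the start to 20 after it, 5′ to 3′ on the gene's strand, from RefSeq on GRCm38.p6. Capitals mark a run of at least 5 pyrimidines that begins with C, and a window in lower case holds none.
Rpl14 (chr9:120571507-120571536, plus strand): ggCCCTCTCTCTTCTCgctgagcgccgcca
Rplp2 (chr7:141447641-141447670, plus strand): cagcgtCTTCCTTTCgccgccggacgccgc
Rps21 (chr2:180257369-180257398, plus strand): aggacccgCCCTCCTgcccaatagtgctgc
Rps12 (chr10:23787190-23787219, minus strand): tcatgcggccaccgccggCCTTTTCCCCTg
Rpl22l1 (chr3:28805498-28805527, plus strand): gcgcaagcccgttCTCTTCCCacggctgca
Rpl22 (chr4:152325716-152325745, plus strand): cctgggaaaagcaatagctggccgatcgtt
Rpl4 (chr9:64173377-64173406, plus strand): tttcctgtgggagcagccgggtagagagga
Rpsa (chr9:120127756-120127785, plus strand): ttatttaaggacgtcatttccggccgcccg

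Promoter entries were found for 62 of the 84 members. The window held such a run, read on the gene's strand only, in 39 of these 62 members (62.9%) and in 35.9% of 27025 genes with an entry. The run covered the listed start itself, with C there followed by at least 4 pyrimidines, in 12 members (19.4%) and in 2.49% of all genes. In Rpl14, Rplp2 and Rps21 the run spans the start, whereas in Rps12 and Rpl22l1 it begins downstream. The motif CACGTG, which Myc and related factors bind and which reads the same on both strands, was in the 300 bases from 250 before to 50 after the start in 5 members (8.07%) and in 7.24% of all genes. TATAAA lay between 40 and 16 bases before the start, on the gene's strand, in 1 member (1.61%) and in 2.22% of all genes. Windows with and without a run both occur among the members whose groups did not overlap, and a match in a listed window is a description of the letters there. Only the first listed start of each gene was used, so a window without a run does not show that a TOP motif is absent.

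The libraries held between 18290912 and 27503254 expected counts each. The targeted gene did not check the labels: Sox17 was at 34.4, 34.5 and 34.2 CPM (counts scaled to library size) in Control, against 33.8, 41.9 and 45.1 CPM in SOX17KO (log2 fold change 0.23, edgeR adjusted p = 0.345). In 2 of 17 alternative settings Sox17 was called higher, and over the 17 its log2 fold change ran from 0.14 to 0.34. Epithelial markers, the labelled kind of cell, summed to between 14499 and 15392 CPM in Control and between 11471 and 15631 CPM in SOX17KO, with SOX17KO replicate 1 lowest. Of its 14 genes 12 were tested, of which edgeR called Lgals4, Cldn7 and Epcam higher and Cldn3 and Cldn4 lower. Over all genes 3.67% were called higher and 3.20% lower. Without SOX17KO replicate 1 edgeR called 6 of 13 tested higher and 2 lower, against 11.9% and 10.3% of all genes. Markers of other cell types were near 0: 11 leukocyte genes summed to at most 14.1 CPM in any library, most of it Cd68, with Cd3e, Cd79a and Tyrobp at 0 throughout. The 9 fibroblast genes summed to at most 0.763 CPM and the 8 endothelial genes to at most 4.10 CPM. SOX17KO replicate 1 stands apart, since leaving it out raised the calls over all genes from 834 to 2708, so counts of called members are given with and without it.

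Ribosomal protein transcripts were abundant and close to equal in the groups. Members took 6.39%, 6.49% and 7.10% of all counts in the Control libraries, in replicate order, and 7.05%, 7.54% and 7.02% in the SOX17KO ones. The mean share was 6.66% ± 0.387 in Control and 7.20% ± 0.290 in SOX17KO (SD, n = 3). Control replicate 3 lay above SOX17KO replicates 1 and 3, so the groups overlapped. The small subunit genes took 2.63% ± 0.159 and 2.90% ± 0.119 of counts, and the large subunit genes 4.03% ± 0.229 and 4.30% ± 0.171. In bulk RNA, fewer cells of a type and less RNA per cell cannot be told apart, and a share says nothing of the amount of RNA per cell.

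Of the 84 members 81 passed the low-count filter. Rpl10l, Rpl39l and Rpl3l, copies of Rpl10, Rpl39 and Rpl3 known mainly from testis or muscle, did not: Rpl10l had at most 2 counts in a library, Rpl3l had 1 count in Control replicate 1 and none elsewhere, and Rpl39l had 0 in all 6. The log2 fold changes of the 81 ran from -0.41 to 0.45, with a median of 0.098 and quartiles of 0.040 and 0.16, against a median of 0.014 over all 12137 genes tested and of -0.0038 over the 2350 genes at 100 CPM or more in Control. The estimate was above 0 in 73 members and below it in 8, and in 52.7% of all tested genes above 0. All 33 small subunit members had a positive estimate, with a median of 0.12, as did 40 of 48 large subunit members, with a median of 0.082. The count above 0 was 73 under each of the 3 other scalings tried. It depended on the libraries: without SOX17KO replicate 2 the median member was at 0.043, with 51 of 81 above 0, and without SOX17KO replicate 1 it was at 0.15, with 75 above 0. Without Control replicate 1 the median was 0.065, with 61 above 0.

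**Figure D1:**
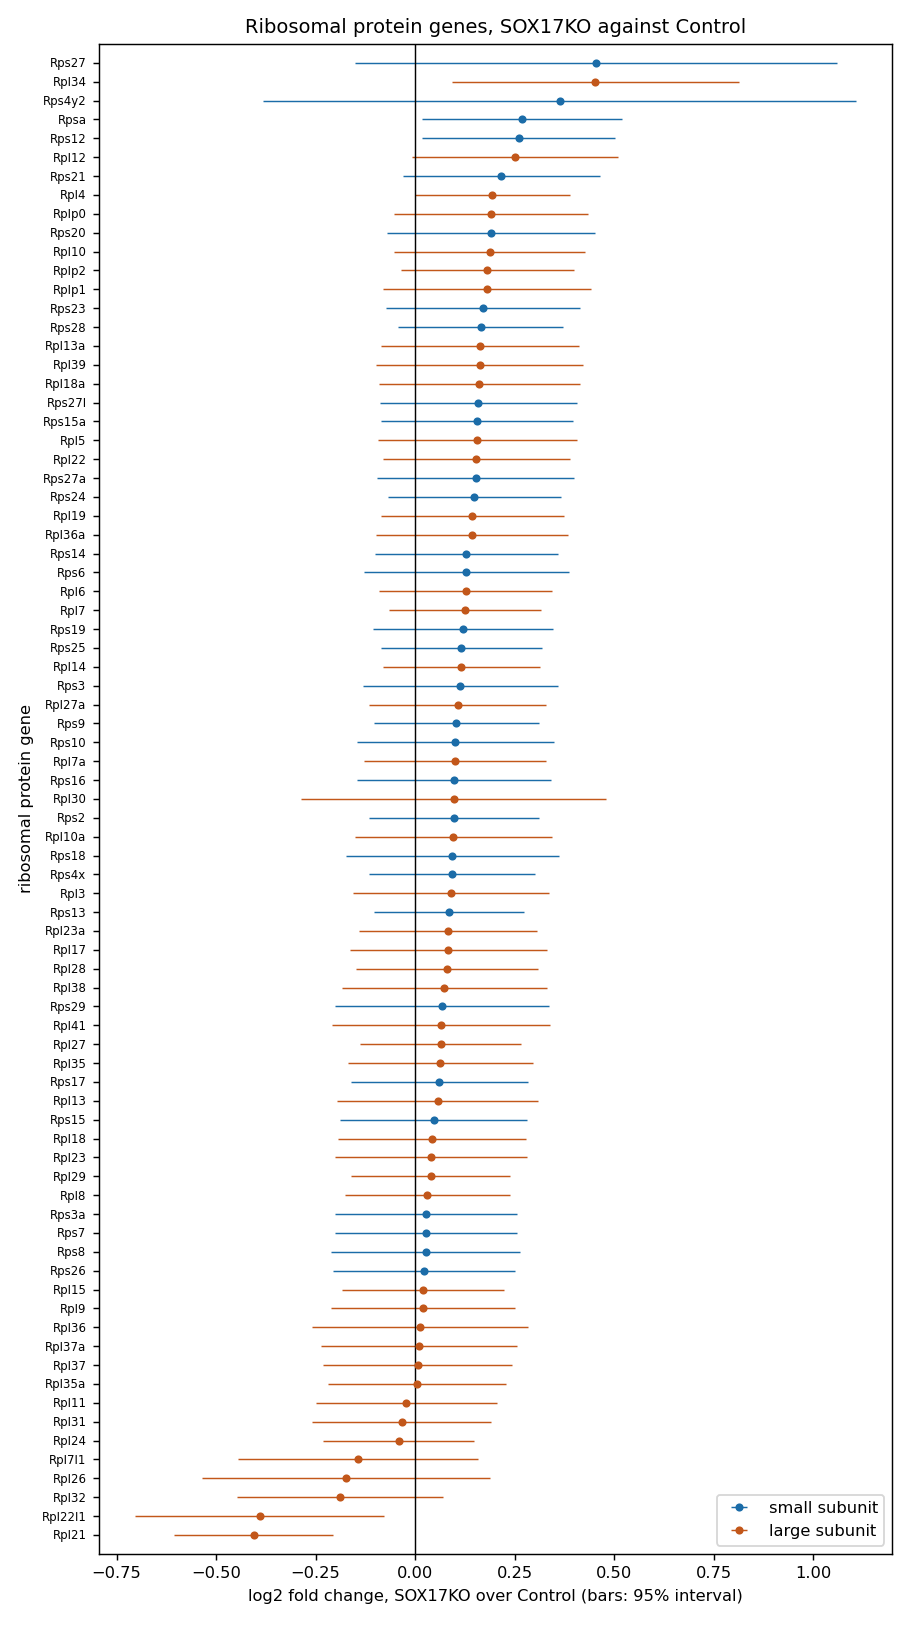
Log2 fold change of 79 of the 81 tested ribosomal protein genes, SOX17KO over Control (x axis), with bars for the 95% interval, sorted by value and coloured by subunit. Most points lie a little above 0; Rpl21 and Rpl22l1 lie lowest, and the widest intervals belong to the scarce Rps27 and Rps4y2.

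Among members, 0 were called higher and 1, Rpl21, was called lower (1.23% of 81) by edgeR's quasi-likelihood test at an adjusted p below 0.05. Over all tested genes 3.67% were called higher and 3.20% lower. At an unadjusted p below 0.05 edgeR had 6 members (7.41%), 4 higher and 2 lower, against 20.3% of all genes. DESeq2 also called 0 members higher and Rpl21 alone lower, against 10.7% of all genes called either way, and had 8 members at an unadjusted p below 0.05 (9.64%, against 15.2% of all). Limma-voom did the same, against 6.25% of all genes called, with 7 members at an unadjusted p below 0.05 (8.64%, against 20.4% of all). The 95% interval of the fold change lay within 1.5-fold either way for 76 of the 81 members, the exceptions being Rpl21, Rpl22l1, Rpl34, Rps27 and Rps4y2.

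Leaving out SOX17KO replicate 1, 8 members were called higher (9.88% of 81), against 11.9% of all tested genes, and 2 lower (2.47%), against 10.3% of all. The 8 included Rpsa, Rps12, Rps23, Rpl5, Rpl10 and Rpl12, and the 2 lower were Rpl21 and Rpl26. Both shares of members were below the share over all genes. Leaving out a Control library, whichever it was, or SOX17KO replicate 3, edgeR called 0 members. Over all genes it then called 1.60%, 1.56% and 1.64% without Control replicates 1, 2 and 3 and 5.49% without SOX17KO replicate 3, so these fits called fewer genes in general.

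The members moved together from library to library within each group. Against the Control mean of log2 CPM, the median member was at -0.08, -0.02 and 0.10 in the Control libraries, in replicate order, and at 0.00, 0.21 and 0.09 in the SOX17KO ones. Control replicate 3 was the highest Control library for 79 of the 81 tested members and Control replicate 1 the lowest for 69. SOX17KO replicate 2 was the highest SOX17KO library for 74 and the highest of all 6 for 66, and SOX17KO replicate 1 was the lowest SOX17KO library for 67. The median SD of log2 CPM over members was 0.0947 in Control and 0.124 in SOX17KO, against 0.0842 and 0.193 over all tested genes. On the library medians given above the groups overlapped, since Control replicate 3 lay above SOX17KO replicates 1 and 3.

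**Figure D2:**
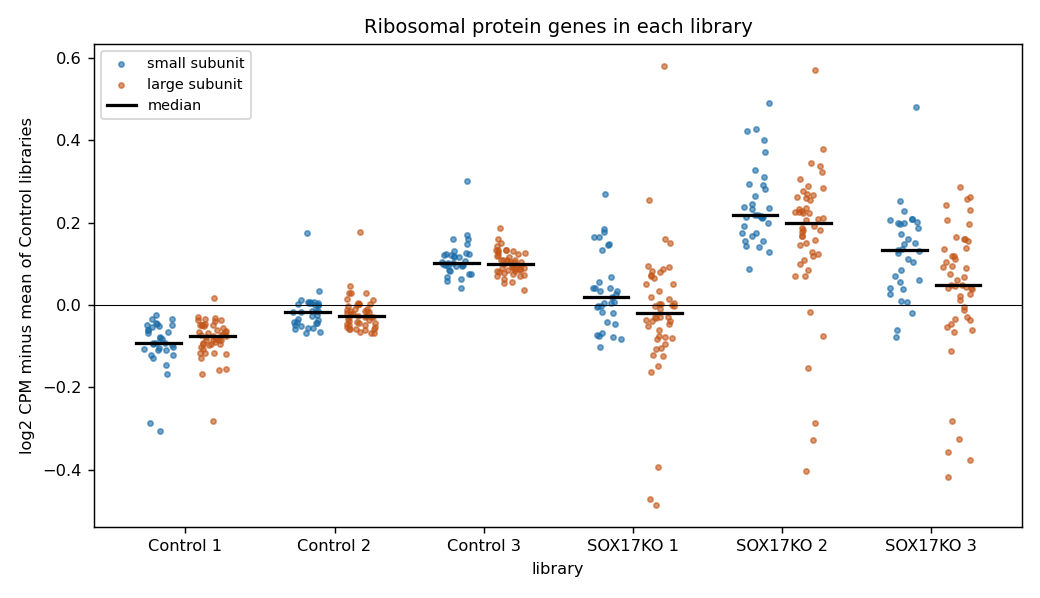
Log2 CPM of each tested ribosomal protein gene minus its Control mean (y axis) in each of the 6 libraries (x axis), with small and large subunit genes in separate columns and black lines at their medians. Both subunits have Control replicate 1 low and replicate 3 high, SOX17KO replicate 1 near 0 and replicate 2 highest. The median of SOX17KO replicate 3 lies above that of Control replicate 3 for the small subunit (0.13 and 0.10). For the large subunit it lies below (0.05 and 0.10).

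Control and SOX17KO libraries did not overlap for 12 members. In 9 of them, among which were Rpl4, Rpl7, Rpl14, Rplp2, Rps12, Rps21 and Rpsa, every SOX17KO library was higher (11.1% of 81), and in Rpl21, Rpl22l1 and Rpl32 every one was lower (3.70%). Over all tested genes 14.0% were higher and 14.2% lower in this way.

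Rpsa encodes a small subunit protein that also serves as a laminin receptor at the cell surface. It was at 1851, 1936 and 2103 CPM in Control, against 2168, 2636 and 2296 CPM in SOX17KO, with every SOX17KO library above every Control library. Its log2 fold change was 0.27 ± 0.11 (SE; edgeR adjusted p = 0.213). Rps12, a small subunit protein, was at 1047, 1043 and 1192 CPM in Control, against 1235, 1440 and 1255 CPM in SOX17KO (log2 fold change 0.26, edgeR adjusted p = 0.210). In both genes the gap between the groups was narrower than the spread within SOX17KO, and SOX17KO replicate 2 was the highest library. Rps6, the substrate of S6 kinase, was at 1282, 1328 and 1423 CPM and at 1276, 1579 and 1554 CPM, with SOX17KO replicate 1 the lowest of the 6 libraries (edgeR adjusted p = 0.610).

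The P-stalk of the large subunit, made of Rplp0, Rplp1 and Rplp2, recruits elongation factors. Rplp0 was at 2590, 2563 and 2839 CPM in Control and 2825, 3378 and 2924 CPM in SOX17KO. Its log2 fold change of 0.19, with a 95% interval from -0.05 to 0.43, did not pass (edgeR adjusted p = 0.371). Rplp1 and Rplp2 had log2 fold changes of 0.18 each (edgeR adjusted p = 0.446 and 0.334), so the 3 stalk genes had nearly equal estimates. The 5 members with the highest Control CPM were Rplp0, Rps2, Rpsa, Rpl4 and Rpl3, none of which was called. Rpl4, which lines the tunnel through which new proteins leave, was at 1847, 1909 and 2034 CPM and at 2155, 2257 and 2211 CPM, its SOX17KO libraries all above its Control libraries (log2 fold change 0.19, edgeR adjusted p = 0.249).

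The Mdm2-binding pair did not pass either. Rpl5 was at 1386, 1484 and 1541 CPM in Control, against 1439, 1754 and 1723 CPM in SOX17KO, with SOX17KO replicate 1 inside the Control range (log2 fold change 0.16, edgeR adjusted p = 0.496). Rpl11 was at 720, 771 and 856 CPM and at 741, 820 and 752 CPM, all 3 SOX17KO libraries falling inside the Control range (-0.02, 95% interval -0.25 to 0.21, edgeR adjusted p = 0.943). Rpl26, which binds the messenger RNA of p53, was at 133, 130 and 146 CPM in Control, against 151, 103 and 109 CPM in SOX17KO. SOX17KO replicate 1 was its highest library and the other two its lowest; the log2 fold change was -0.17 with all libraries (edgeR adjusted p = 0.626) and -0.37 without SOX17KO replicate 1 (edgeR adjusted p = 0.00755).

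Rpl21, a large subunit protein gene on chromosome 5, was the member that fell. It was at 1495, 1524 and 1627 CPM in Control, against 1116, 1233 and 1158 CPM in SOX17KO, so the highest SOX17KO library was well below the lowest Control library. Its log2 fold change was -0.41 ± 0.09 (SE; 95% interval -0.61 to -0.21; edgeR adjusted p = 0.0354). Set against the median member of the same library, Rpl21 was at a log2 ratio of 1.02, 0.98 and 0.96 in Control and 0.55, 0.42 and 0.51 in SOX17KO (exact two-sided permutation p = 0.1, the smallest that 3 against 3 can give). The groups did not overlap on this scale either. Of the fits that left out 1 library, those in which the call was lost were without Control replicates 1, 2 or 3 (edgeR adjusted p = 0.126, 0.171 and 0.160) and without SOX17KO replicate 3 (0.0936), while the log2 fold change stayed between -0.45 and -0.37 in every setting run.

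Rpl32, a large subunit protein gene on chromosome 6, was at 1035, 1040 and 1140 CPM in Control, against 814, 1016 and 991 CPM in SOX17KO. The groups were apart by a narrow gap, with SOX17KO replicate 1 lowest, and the log2 fold change of -0.19 (95% interval -0.45 to 0.07) did not pass (edgeR adjusted p = 0.415). Relative to the median member of its library, Rpl32 was at 0.48, 0.43 and 0.45 in Control and at 0.10, 0.14 and 0.28 in SOX17KO.

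**Figure D3:**
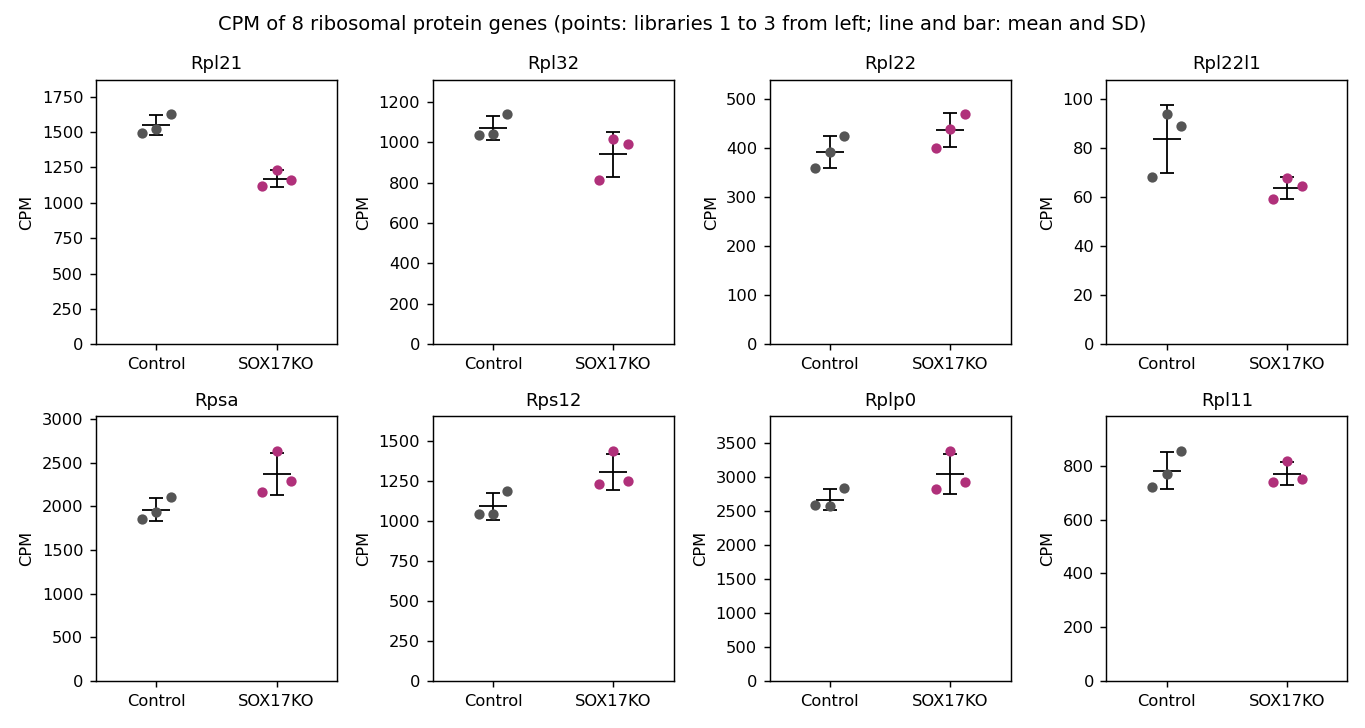
CPM (y axis, from 0) of 8 ribosomal protein genes in each library, with points for replicates 1 to 3 from left to right and a line and bar for the mean and SD of 3 libraries per group. The groups are well apart for Rpl21, narrowly apart for Rpl32, Rpl22l1, Rpsa and Rps12, and overlap for Rpl22, Rplp0 and Rpl11.

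On the scale of log2 ratio to the median member, the groups did not overlap for 16 members higher in SOX17KO (19.8% of 81) and 10 lower (12.3%). Over all tested genes, on the same scale, 7.09% were higher and 15.9% lower. Because the scale is set by the members themselves, these shares are descriptions. Rpsa was the steadiest of the higher ones, at 1.32, 1.33 and 1.33 in Control and 1.51, 1.52 and 1.49 in SOX17KO. All 3 stalk genes were among the 16, and Rpl11 and Rpl31 were among the 10.

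Several members have a divergent copy with its own gene. Rpl22 and Rpl22l1 encode related large subunit proteins, and Rpl22 protein is known to repress Rpl22l1. Rpl22l1 was at 68.1, 93.9 and 89.2 CPM in Control, against 59.1, 67.9 and 64.7 CPM in SOX17KO, the highest SOX17KO library just below Control replicate 1. Its log2 fold change was -0.39 ± 0.13 (SE; 95% interval -0.70 to -0.08), with an unadjusted p of 0.0215 and an edgeR adjusted p of 0.147. Rpl22 was at 360, 392 and 424 CPM in Control and 400, 439 and 469 CPM in SOX17KO, with overlapping groups (log2 fold change 0.15, edgeR adjusted p = 0.474). Within each library, Rpl22l1 stood at 18.9%, 24.0% and 21.0% of the Rpl22 level in counts in Control and at 14.8%, 15.5% and 13.8% in SOX17KO, with no overlap. The means were 21.3% ± 2.53 and 14.7% ± 0.838 (SD, n = 3; exact two-sided permutation p = 0.1, adjusted over 5 pairs 0.5).

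The other pairs with enough counts differed less or overlapped. Rpl7l1 stood at 14.8% ± 0.546 of Rpl7 in Control and 12.3% ± 2.10 in SOX17KO (exact permutation p = 0.2, adjusted 0.5), with SOX17KO replicate 1 inside the Control range. Rpl36al, which is outside the rule, stood at 86.3% ± 3.33 and 86.9% ± 2.39 of Rpl36a (exact permutation p = 0.8). Rps4y2, listed in RefSeq as Rps4l, was below 0.1% of Rps4x in every library (exact permutation p = 0.5). Rps27l, a p53 target, was at 67.2, 73.2 and 83.9 CPM in Control and 89.9, 79.1 and 81.4 CPM in SOX17KO (edgeR adjusted p = 0.486).

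Counts of members carry the uncertainty of shared reads, since ribosomal protein genes have many processed pseudogenes. Expected counts were not whole in all 6 libraries for 67 of the 81 tested members (82.7%), against 24.5% of all tested genes, so the estimate splits reads with other rows. Rps27, a standard small subunit gene, was at only 1.51 to 2.94 CPM, and Rpl34 at 17.7, 19.4 and 22.7 CPM in Control and 29.9, 29.7 and 22.2 CPM in SOX17KO. The row named for its pseudogene Rpl34-ps1 was far higher, at 351, 374 and 404 CPM and 411, 505 and 464 CPM. Rpl34 alone gave 0.45 on the log2 scale (edgeR adjusted p = 0.143), and the sum of both rows had 0.30 (edgeR adjusted p = 0.154). The 5 tested members with the fewest CPM in Control were Rps4y2, Rps27, Rpl34, Rpl30 and Rps27l.

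Tested genes that lie beside Rpl21 on its chromosome were lower too. Over the 10 tested genes on each side, in the gene order of GRCm38.p6, the median log2 fold change was -0.40, the lowest for any of the 81 members, and 9 of the 20 were called lower. The median was -0.50 for the 10 before Rpl21, of which 7 were called lower, and 0.05 for the 10 after it, of which 2 were. The neighbours on one side included Usp12 at -0.35, Cdk8 at -0.57 and Rnf6 at -0.58, and those on the other Gtf3a at -0.60 and Mtif3 at -0.51, all called lower. Rasl11a, which adjoins Rpl21 on that side, was scarce, at 0.03 and not called, and its sign varied with the setting. Farther on that side, Lnx2 at 0.10, Polr1d at 0.06, Cdx2 at 0.12 and Pan3 at 0.00 were not called. Of 17 alternative settings, the call was lost in 6 for Usp12, 5 for Cdk8, 3 for Rnf6, 5 for Gtf3a and 4 for Mtif3.

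Rpl32 had the second lowest neighbours, with a median of -0.30 and 5 of 20 called lower, among them Mbd4 at -0.67. Its nearest neighbours were Mbd4, whose call was lost in 6 of 17 alternative settings, and Cand2, at 0.23 and not called. Rps4y2, also on chromosome 6, had the next lowest at -0.29, while its own estimate was 0.36 at about 1 CPM. On chromosome 6 as a whole, 75.4% of the other tested genes had a negative estimate, with a median of -0.24. Neighbours of Rpl22l1, on chromosome 3, were near 0, as the plot of members against neighbours shows. Across all 81 members the log2 fold change and the neighbours' median had a Pearson r of 0.25 and a Spearman rho of 0.10, and r was 0.05 without Rpl21; these are descriptions over genes of the same 6 libraries. The part of chromosome position in the values of Rpl21 and Rpl32 was not tested.

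**Figure D4:**
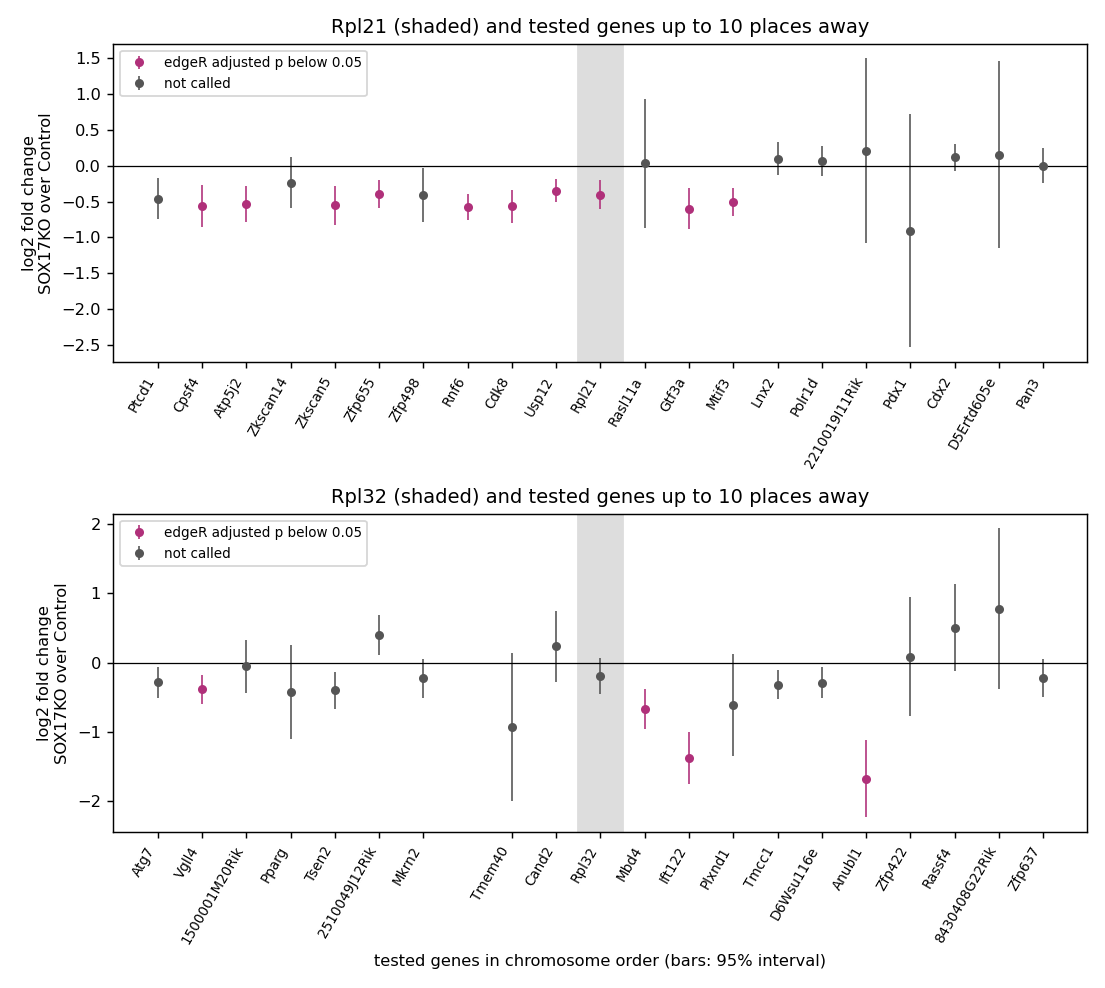
Log2 fold change, SOX17KO over Control (y axis), of Rpl21 and Rpl32 (shaded) and tested genes up to 10 places away on each side in chromosome order (x axis; 1 place beside Rpl32 is not drawn), with bars for the 95% interval and coloured points for genes with an edgeR adjusted p below 0.05. Rpl21 sits near the end of a run of lower genes that reaches Mtif3, apart from Rasl11a, and the genes around Rpl32 are lower with exceptions.

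**Figure D5:**
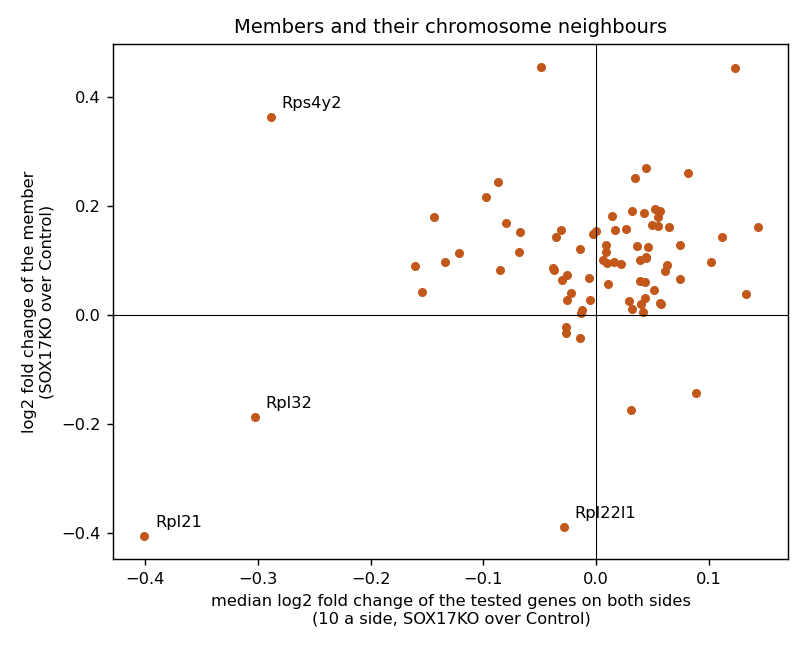
Log2 fold change of each tested ribosomal protein gene (y axis) against the median log2 fold change of its neighbours, 10 tested genes a side (x axis), SOX17KO over Control. Rpl21 and Rpl32 are low on both axes, and Rpl22l1 is low with neighbours near 0. Rps4y2 is above 0 (0.36) with low neighbours (-0.29). Most of the other members cluster above 0 at neighbour medians near 0.

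Genes that serve the ribosome were read from lists chosen beside the members. Of 16 other tested genes with a TOP messenger RNA, 0 were called by edgeR or DESeq2, and 13 had a positive estimate (median 0.13). At an unadjusted p below 0.05 edgeR had 1 of the 16, against 20.3% of all genes. Without SOX17KO replicate 1 edgeR called 5 of them higher, in a fit that called 11.9% of all genes higher. Their most abundant member, the elongation factor gene Eef1a1, was at 8325, 8304 and 8429 CPM in Control and 8550, 10664 and 10125 CPM in SOX17KO (edgeR adjusted p = 0.302). Its groups did not overlap, and it was called higher in 2 of 17 alternative settings. It shared with the members a low SOX17KO replicate 1 and a high replicate 2.

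Ribosome assembly factors, which build the subunits in the nucleolus, followed another order of libraries. Of 63 tested, 0 were called by edgeR or DESeq2, with 1 at an unadjusted edgeR p below 0.05, and edgeR called 6 lower without SOX17KO replicate 1, where 10.3% of all genes were called lower. Their median difference from the Control mean was 0.35, -0.05 and -0.17 in SOX17KO replicates 1, 2 and 3, against 0.00, 0.21 and 0.09 for the members. Their most abundant gene, Ncl, which encodes the nucleolar protein nucleolin, was at 1395, 1554 and 1655 CPM in Control and 2152, 1400 and 1312 CPM in SOX17KO, with replicate 1 alone above the Control range (edgeR adjusted p = 0.887). The 14 tested genes of RNA polymerase I and its factors, which transcribe ribosomal RNA, were at 0.21, -0.05 and -0.16, and 0 were called by edgeR or DESeq2, with 0 at an unadjusted edgeR p below 0.05 and 1 called lower by edgeR without SOX17KO replicate 1. By these medians SOX17KO replicate 1 was the highest SOX17KO library for both of these groups and the lowest for the ribosomal protein genes.

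Among 76 tested mitochondrial ribosomal protein genes, which make the separate ribosome of mitochondria, edgeR called 0 higher and 2 lower, against 3.67% and 3.20% of all genes. DESeq2 called 1 higher and 2 lower, and edgeR without SOX17KO replicate 1 called 1 higher and 5 lower, against 11.9% and 10.3% of all genes. With all libraries edgeR had 11 of the 76 at an unadjusted p below 0.05, against 20.3% of all genes. Mrps25 was at 85.6, 90.0 and 90.9 CPM in Control and 67.8, 65.4 and 58.9 CPM in SOX17KO (edgeR adjusted p = 0.019), and lies on chromosome 6. Mrps6 was at 31.3, 30.3 and 35.7 CPM and 23.5, 24.6 and 23.5 CPM (edgeR adjusted p = 0.040). Both had every SOX17KO library below every Control library. The calls of Mrps25 and Mrps6 were lost in 4 and 7 of 17 alternative settings. Of 57 tested translation initiation and elongation factors, Eif5 rose, with a log2 fold change of 0.57, and Eif4h, Eif3b and Eif2c1 fell, by 1.47, 0.72 and 0.47 on the log2 scale. EdgeR thus called 1 higher and 3 lower in this list, against 3.67% and 3.20% of all genes, and DESeq2 also called 1 higher and 3 lower. Without SOX17KO replicate 1 edgeR called 8 higher and 4 lower, against 11.9% and 10.3% of all genes. The number of calls each way therefore varied with the libraries used. Eif5, Eif4h, Eif3b and Eif2c1 kept their sign in all 17 alternative settings, and their calls were lost in 4, 0, 4 and 5 of them. Eif4h and Eif3b lie on chromosome 5 with Rpl21, and Eif2c1 is the older symbol of an Argonaute gene rather than an initiation factor. Of the 20 tested regulators of ribosomal protein synthesis and the 9 genes of the Mdm2 axis, edgeR called 0, with 0 and 1 at an unadjusted p below 0.05; DESeq2 called 0 and 1. Without SOX17KO replicate 1 edgeR called 1 regulator higher, and 1 gene of the Mdm2 axis higher and 1 lower. That fit called 11.9% of all genes higher and 10.3% lower.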

How the data were processed

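Per the labels' protocols, poly(A) RNA went into a directional library kit. Bowtie, RSEM and mm9 appear in the submitters' processing notes; for versions, annotation and strand setting nothing was found in the sources used. The table the authors deposited holds expected counts per gene, of which 26.6% to 30.3% per library were not whole; they were rounded. CPM are counts over TMM-scaled library sizes.

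Groups were compared over all genes with edgeR 4.0.16 (R 4.3.3; quasi-likelihood F test, TMM, filterByExpr with minimum count 10 and total 15, Benjamini-Hochberg over 12137 genes, threshold 0.05). Alternatives used DESeq2 1.42.0, limma 3.58.1 (voom), other scalings and filters, a replicate block and each library left out. Library differences used log2(CPM + 0.5). Figures used matplotlib 3.10.9. The procedure was tested on simulated data.

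Genes were named by a rule: called members, the 5 largest estimates each way, the 5 highest and lowest in CPM, paralogue pairs, the stalk and Mdm2-binding genes, and called or most abundant genes of each list. A few genes that the rules take are not reported here. Other genes, including chromosome neighbours, were chosen after their values were seen. Members and lists were chosen with earlier results of these data known. Gene order and symbols came from RefSeq on GRCm38.p6, which placed 12015 tested genes (99.0%); no coordinate was compared with mm9.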

Additional observations from a re-analysis of the deposited data

How the results depend on the processing

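The number of members called was 1 with all libraries and under the other scalings, filters and tools run, except as follows. It was 0 with the replicate number as a block, where edgeR had 2 members at an unadjusted p below 0.05, 326 genes (2.69%) were called overall and Rpl21 had an adjusted p of 0.157. It ran from 0 to 10 when each library was left out in turn, with 1 to 32 members at an unadjusted p below 0.05. The 32 were without SOX17KO replicate 1, where 2708 genes were called at an adjusted p below 0.05. For these fits and the replicate block the share of all genes at the unadjusted threshold was not counted. Their unadjusted counts are therefore no result about the members. With voom quality weights, an alternative chosen after seeing the data, the number of members called was 6 (7.41% of members), of which 4 were higher and 2 lower, against 17.0% of all genes called. The cause was not tested. Samples that share a replicate number did not deviate together (r = -0.19, -0.05 and -0.18), and no sample correlated best with the other group's sample of its own number. The median member stayed above 0 in every setting, between 0.043 and 0.15. Of 561 values for 33 named members, 539 kept their direction and side of the threshold, 5 lost the call, all of them Rpl21, 14 gained one and 3, all of them Rpl11, changed sign.

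Among the named genes that were followed through the settings, the sign turned for 6, none of them called. Not every gene named above was followed. Rpl31, which was not, was at -0.034 with all libraries and at 0.019 without SOX17KO replicate 1. With each library left out, Rpl11 ran from -0.080 to 0.037, Ncl from -0.18 to 0.21, Ubtf from -0.12 to 0.24, Ccng1 from -0.040 to 0.15, Rasl11a from -0.50 to 0.33 and Cand2 from -0.020 to 0.42. With voom quality weights Rpl11 was at 0.0052, Ncl at -0.14, Ubtf at -0.057 and Rasl11a at -0.36; Rasl11a was at -0.077 with limma-voom and at -0.081 with the replicate block. Depth limits the scarce members most: 75 members were at 100 CPM or more in Control, and of the 6 tested members below that, 2 had a 95% interval within 1.5-fold either way.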
